A study of Mus musculus with 11 samples.

Results

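The genes described here encode proteins that copy DNA or divide chromosomes between daughter cells, 48 of the 55487 genes counted in mouse hearts. They were matched by their GENCODE symbol on the mouse build GRCm38 to a list of proliferation and replication genes, which was drawn up with earlier results of these data known. All 48 were found and all passed the low-count filter. By the stage at which the products mainly work, 13 were placed with entry into S phase and DNA replication (the replication members) and 35 with mitosis and chromosome structure (the mitotic members).

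RNA was sequenced from hearts of female C57BL/6NTac mice that were 8 weeks old when a diet of 24 weeks began. Control mice, 4 libraries, ate a diet with 10.4% of its energy as fat. Obese mice, 4 libraries, ate a diet with 60.3% of its energy as fat together with sweetened condensed milk, and were gavaged with vehicle, 10% PEG400, from week 16. Treated mice, 3 libraries, were obese mice gavaged over the same weeks with dasatinib, a tyrosine kinase inhibitor, at 5 mg/kg and quercetin, a plant flavonoid, at 50 mg/kg in that vehicle, a pair used as a senolytic cocktail against senescent cells. No transgene or deletion is named in the labels for any group. The sources used here do not give whether control mice were gavaged, so diet and gavage cannot be told apart between control and obese libraries. Separate animals are not named for the libraries, and p-values therefore rest on differences among libraries that could be partly technical.

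Cells that divide switch these genes on in waves. As background, RB-family pocket proteins hold E2F factors in check until G1 cyclins and their kinases release them, and E2F1 then drives cyclin E, the MCM helicase, PCNA and the enzymes that make deoxynucleotides. Later, B-MYB, the MuvB complex and FOXM1 switch on mitotic genes, among them cyclin B, CDK1, the mitotic kinases, kinesins, condensin and survivin. In resting cells the DREAM complex, MuvB with a pocket protein and a repressing E2F, keeps many of the same genes off. Most adult cardiomyocytes have left the cell cycle, while endothelial cells, fibroblasts and blood cells in the heart can still divide.

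The promoters of some members are shown because the motifs they hold differ between mitotic and replication members. The stretches come from RefSeq promoters on GRCm38.p6, are written 5′ to 3′ on the strand of the gene, and carry capitals wherever a searched motif matched on either strand. The CCAAT box, searched as those letters, is bound by NF-Y. The cell cycle genes homology region or CHR, searched as TTTGAA, is a contact of MuvB. The E2F sites searched were TTTCGCGC, TTTGGCGC and TTTCCCGC, and their matches can overlap each other. Mitotic members come first.

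Top2a, chr11:99024200-99024299, minus strand, with CCAAT boxes and a CHR near the start: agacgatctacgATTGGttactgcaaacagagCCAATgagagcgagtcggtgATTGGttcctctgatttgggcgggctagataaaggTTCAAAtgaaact
Mki67, chr7:135716470-135716569, minus strand, with CCAAT boxes and a pair of CHR elements: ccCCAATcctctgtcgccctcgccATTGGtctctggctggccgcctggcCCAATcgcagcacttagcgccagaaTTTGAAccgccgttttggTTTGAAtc
Ube2c, chr2:164769829-164769908, plus strand, with CCAAT boxes and a CHR: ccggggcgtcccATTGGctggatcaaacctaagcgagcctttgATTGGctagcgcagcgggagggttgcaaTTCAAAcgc
Cdk1, chr10:69352913-69353052, minus strand, with all 3 kinds of motif: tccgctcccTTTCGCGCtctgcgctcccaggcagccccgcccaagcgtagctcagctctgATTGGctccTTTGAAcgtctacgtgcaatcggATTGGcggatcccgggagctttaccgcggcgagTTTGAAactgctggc
Kif11, chr19:37376322-37376381, plus strand, with a CCAAT box and a CHR: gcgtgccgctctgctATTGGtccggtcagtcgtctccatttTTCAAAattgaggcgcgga
Mcm6, chr1:128359706-128359825, minus strand, a replication member with E2F sites, CCAAT boxes and no CHR in the stretch: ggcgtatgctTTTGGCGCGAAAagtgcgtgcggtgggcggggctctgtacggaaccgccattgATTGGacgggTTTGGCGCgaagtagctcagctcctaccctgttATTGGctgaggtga
Mcm5, chr8:75109349-75109458, plus strand, a replication member with overlapping E2F sites, a CCAAT box and no CHR in the stretch: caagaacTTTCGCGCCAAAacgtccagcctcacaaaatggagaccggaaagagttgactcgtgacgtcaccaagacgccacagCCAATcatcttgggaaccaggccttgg

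RefSeq promoters, 250 bases before to 50 after each start, were matched for 39 members, which have 42 promoters between them. A CHR lay in 23 of 30 promoters of mitotic members (76.7%), in 1 of 12 promoters of replication members (8.33%, Mcm2) and in 17.9% of all 32851 promoters. Mitotic members without one in the window were Birc5, Bub1, Ccnb1, Cenpe, Melk, Ncaph and Nusap1. The CCAAT box was common in both groups, in 83.3% of mitotic and 75.0% of replication promoters against 37.4% of all promoters. E2F sites lay in 33.3% of replication promoters (Mcm3, Mcm5, Mcm6 and Mcm7), in 10.0% of mitotic promoters (Cdk1, Ncapd2 and Ncapg) and in 1.84% of all promoters. A CCAAT box and a CHR stood together in 73.3% of mitotic promoters and in 6.95% of all. A match is a run of letters and not a shown binding site, and its absence says nothing of the factor.

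**Figure D1:**
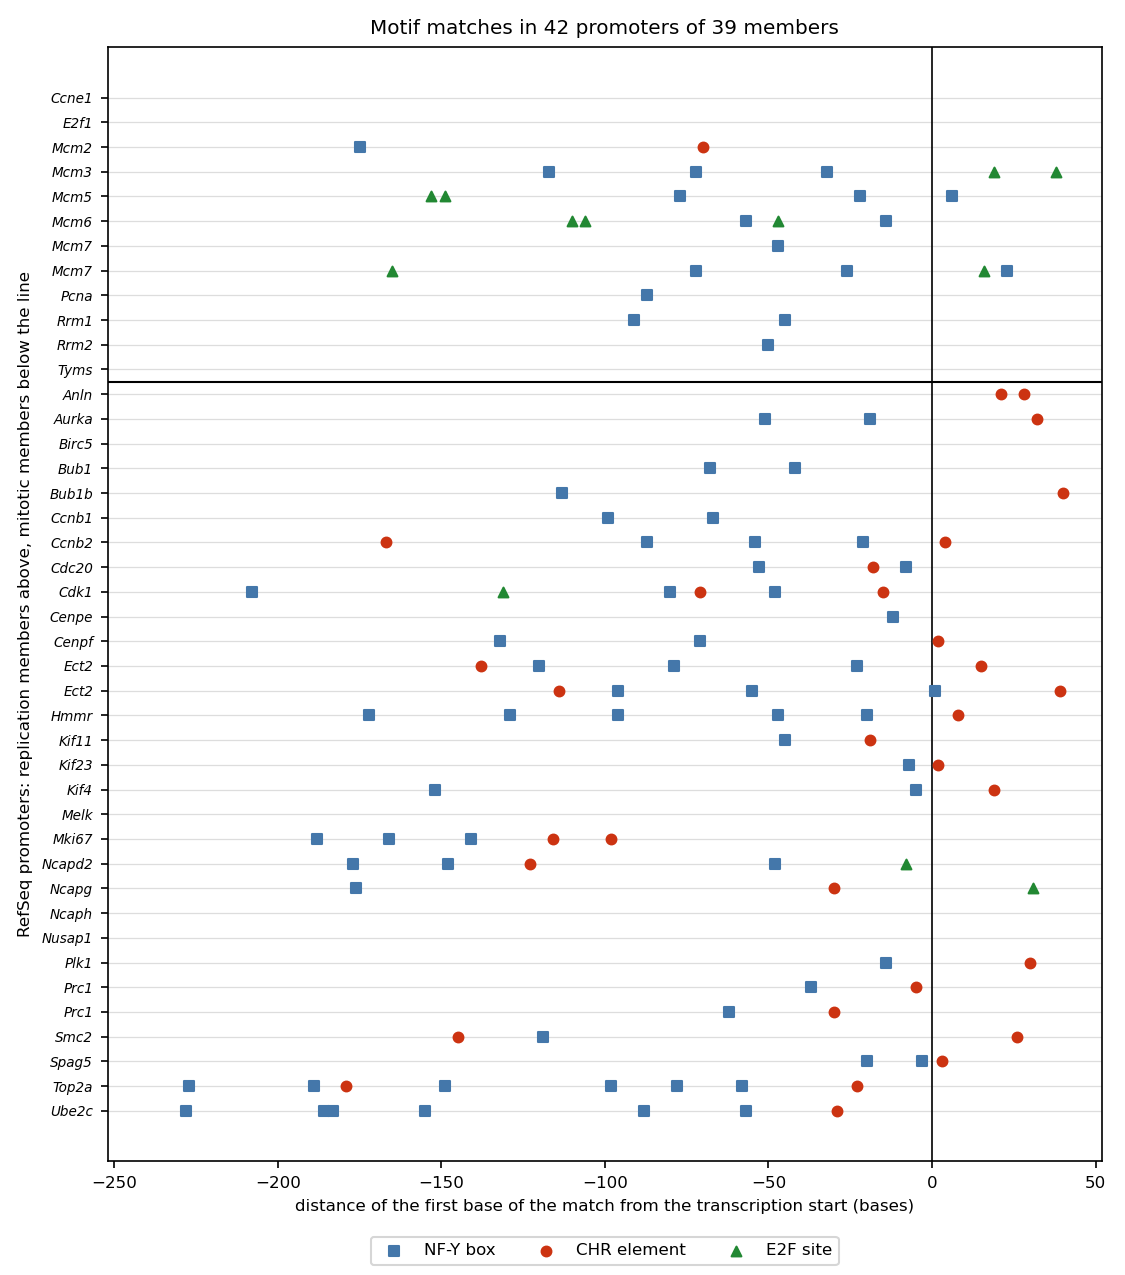
Each row is 1 RefSeq promoter of a member, the x axis is the distance in bases of a match from the transcription start, squares are CCAAT boxes (NF-Y), circles CHR elements and triangles E2F sites. Circles lie in 23 of the 30 mitotic promoters below the line and in 1 of the 12 replication promoters above it.

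Library totals ran from 52.7 to 103.3 M counts, and control libraries (73.1 to 103.3 M) were deeper than obese (52.7 to 67.2 M) and treated ones (64.2 to 72.3 M). Ventricular cardiomyocyte markers, a list of 7 led by the myosin gene Myh6, summed to between 22022 and 38473 CPM (counts scaled to a common library size) in every library, with none of them at 0. A list of 7 atrial markers stood at 2174 CPM in obese replicate 3, 2791 in treated replicate 2 and 5735 in treated replicate 3, against at most 216 in the other 8 libraries. These 3 libraries stand apart, and results are also given without them. The share of counts in sense-intronic and unclassified (TEC) genes was 0.286% to 0.590% in control, 0.663% to 0.811% in obese and 0.510% to 0.671% in treated libraries. Summed markers of endothelial cells (8 genes) were 1279 to 1580 CPM in control, 867 to 1026 in obese and 817 to 899 in treated libraries. Those of B and plasma cells (8 genes) were 11 to 18.4, 5.37 to 10.5 and 5.99 to 7.94 CPM. In each list, 7 markers had a negative log2 fold change and 1 a positive one, for obese and for treated against control. The positive one among B and plasma cell markers was called as higher in both comparisons (edgeR adjusted p under 0.05). Smooth muscle and pericyte markers (7 genes) summed to 1390 to 1590 CPM in control, 896 to 1213 in obese and 740 to 1205 in treated libraries. Of these 7, 4 had a negative log2 fold change and 3 a positive one, for obese and for treated against control. Adipocyte markers (7 genes, 1 of them at 0 in control) were higher outside control, at 0.255 to 0.515, 0.582 to 9.33 and 1.02 to 11.2 CPM, as were mesothelial markers (6 genes) at 4.90 to 6.57, 8.34 to 14.6 and 7.17 to 42 CPM. The mitochondrial share of counts was 28.2% to 32.3% in control, 21.4% to 24.5% in obese and 17.8% to 22.4% in treated libraries. For these 5 marker lists and for the mitochondrial share, control did not overlap either other group. The part that depth, intronic share, mitochondrial share or these cell types have in the results below was not tested beyond the values given.

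The members were weakly expressed. On average over the 11 libraries, 20 members lay under 1 CPM and 9 at or above 5 CPM. Here 1 CPM stood for 58.4 to 89.2 counts, so counting error is large for the lowest members. Hmmr was read with 6 to 66 counts per library and Cdk1 with 7 to 78. Per kilobase of exon, the mean level over the libraries had a median of 0.978 CPM across replication members and 0.216 CPM across mitotic members. Ncapd2, a condensin subunit, was the highest at 3.80 CPM per kb, followed by Pcna at 3.65 and by Smc4, a core condensin ATPase, at 3.11. Melk, a kinase of dividing cells, was the lowest at 0.0528 CPM per kb. Group means of Pcna were 4.76 (control), 2.78 (obese) and 3.35 CPM per kb (treated), so its order against Ncapd2 (3.42, 4.23 and 3.72) differed between groups.

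**Figure D2:**
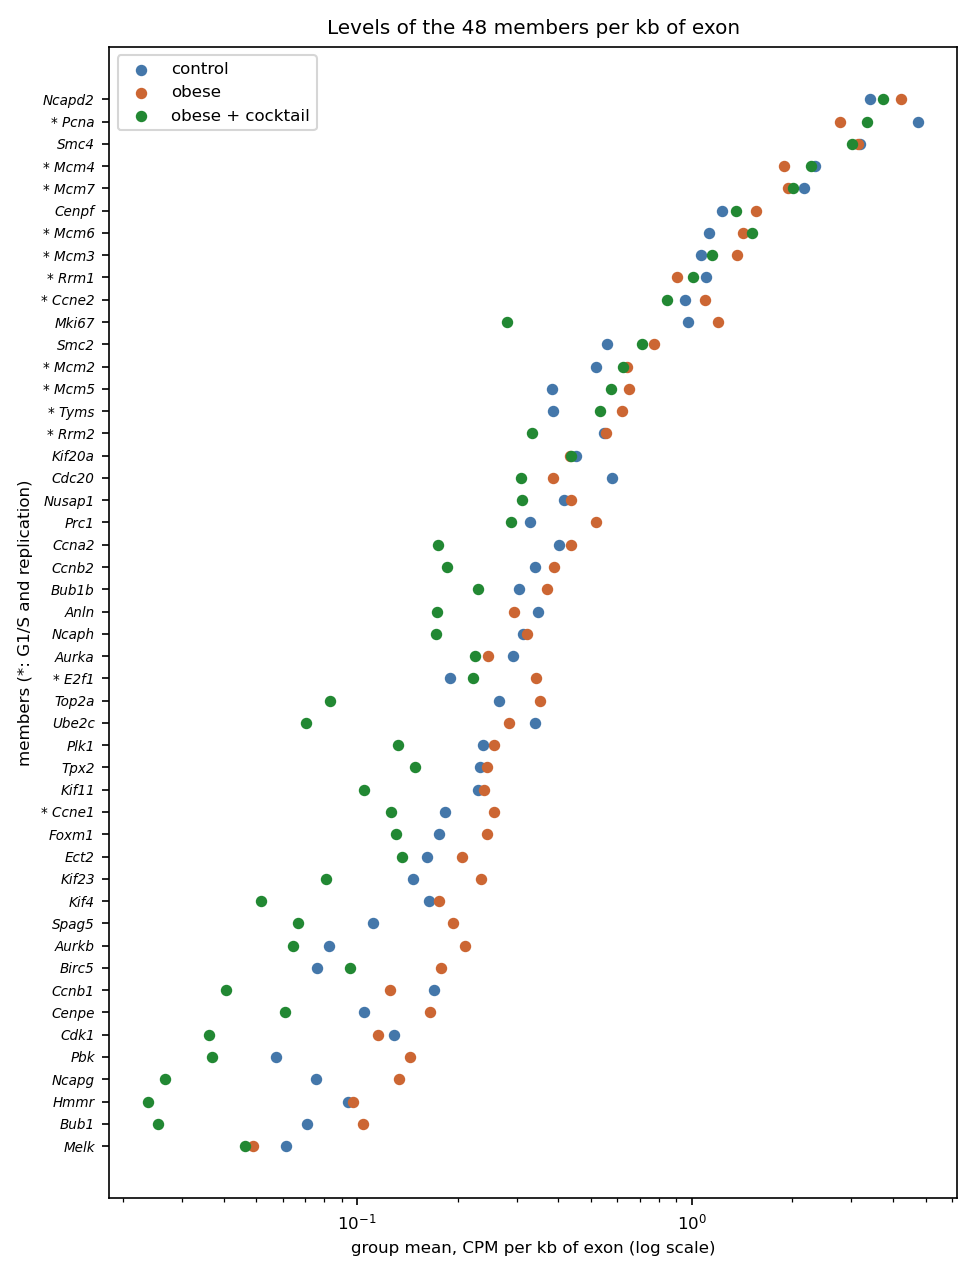
The x axis, a log scale, is the group mean in CPM per kb of exon for each of the 48 members, in order of the mean over all libraries, with asterisks on replication members. Points of the 3 groups lie close together for Smc4, Mcm7 and Kif20a, and the treated point lies to the left for Mki67, Top2a and Ube2c.

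Several members share their place in the genome with a more abundant gene. Ccna2, Ccne2, Cdc20, Kif20a, Kif4, Mcm7, Ncapg and Prc1 are overlapped by a gene on the opposite strand with a larger total count, for example Lcorl at Ncapg and Cops6 at Mcm7. Ncapd2 hosts Scarna10, a small RNA read more than its host. The sources used here do not state whether counting used strand, so the values of these 9 members are uncertain.

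Obese hearts were first compared with control hearts, which asks how diet is related to these genes. Of 48 members, 4 rose (Mcm5, Tyms, Birc5 and Prc1) and 1 fell (Pcna) at an edgeR adjusted p under 0.05. Over all 23779 genes tested, 14.4% rose and 15.7% fell (30.1% in all), so the members called were a smaller share than this background. The median log2 fold change was 0.24 over the members and 0.11 over all genes. It was positive for 35 of 48 members and for 13506 of all 23779 genes. Groups did not overlap, obese above control, for 7 members (13.8% of all genes), and obese lay below control for 1 (14.7% of all genes). In bulk RNA, fewer dividing cells and less of each RNA per cell cannot be told apart.

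Mcm5 (chr8:75109569-75128439), a subunit of the ring helicase that unwinds DNA at the replication fork, was the 1 rise that held when any 1 library was left out. With the intronic share in the model its log2 fold change was 1.44 (SE 0.32, edgeR adjusted p = 0.0755), short of the threshold. Its CPM were 1.73, 1.12, 1.60 and 1.65 in control replicates 1 to 4, 2.17, 3.06, 2.12 and 3.0 in obese replicates, and 2.02, 2.46 and 2.41 in treated replicates. Every obese and treated library lay above every control library. The obese level was 1.70-fold that of control (log2 fold change 0.76, SE 0.20, edgeR adjusted p = 0.0138). Treated against control, the log2 fold change was 0.59 (SE 0.22, edgeR adjusted p = 0.0801).

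Tyms encodes thymidylate synthase, which makes the thymidine nucleotide for DNA. It measured 2.72, 2.04, 2.25 and 2.40 CPM in control, 3.11, 5.09, 3.39 and 3.47 in obese and 2.99, 2.82 and 3.91 in treated libraries. Obese and treated libraries again lay above all control libraries. The obese level was 1.60-fold higher than control on the fitted scale (log2 fold change 0.68, SE 0.19, edgeR adjusted p = 0.0189), a call lost without control replicate 3 or obese replicate 2.

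Pcna (chr2:132249162-132253314) encodes the sliding clamp that holds DNA polymerases on their template and also serves DNA repair. Control libraries held 12.4, 8.77, 10.7 and 13.9 CPM, obese libraries 5.70, 6.49, 6.61 and 7.88, and treated libraries 5.73, 10.9 and 7.43. Pcna went the opposite way to Mcm5, with every obese library below every control library. It fell by 0.78 on the log2 scale in obese hearts (SE 0.20, edgeR adjusted p = 0.0109), 1.71-fold. The call held when any 1 library was left out, and with the intronic share in the model it was lost and the value was 0.026. Treated replicate 2 lay inside the control range, and Pcna stood at -0.51 in treated against control hearts (log2, SE 0.21, edgeR adjusted p = 0.121), with an adjusted p of 0.0312 without that library.

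The other subunits of the helicase did not move as 1 block. Mcm6 (chr1:128331590-128359664) had 5.15, 5.65, 4.89 and 5.32 CPM in control, 6.04, 6.93, 7.44 and 6.09 in obese and 6.21, 7.55 and 7.51 in treated libraries. Its control libraries lay below all others, with log2 fold changes of 0.34 (SE 0.13, edgeR adjusted p = 0.0594) for obese against control and 0.43 (SE 0.14, adjusted p = 0.0456) for treated against control. The second call is close to the threshold and was lost in 8 of the 11 fits that left out 1 library. Mcm2, Mcm3, Mcm4 and Mcm7 had overlapping groups, and their log2 fold changes with diet ran from -0.31 (Mcm4) to 0.36 (Mcm3) with none called. Ribonucleotide reductase, which makes deoxynucleotides, had values of -0.28 (SE 0.13) for Rrm1 and 0.02 (SE 0.31) for Rrm2.

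Among mitotic members, Birc5, which encodes survivin of the chromosomal passenger complex, measured 0.354, 0.344, 0.224 and 0.109 CPM in control, 0.685, 0.880, 0.527 and 0.335 in obese and 0.340, 0.392 and 0.244 in treated libraries. Obese replicate 4 lay within the control range. The log2 fold change with diet was 1.22 (SE 0.40, edgeR adjusted p = 0.0344), a call lost without control replicate 3, control replicate 4, obese replicate 1 or obese replicate 2 and without the 3 libraries of high atrial signal.

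Prc1 encodes a protein that bundles microtubules between the separating chromosomes. It measured 3.24, 2.74, 2.53 and 2.32 CPM in control, 3.99, 5.31, 3.31 and 4.47 in obese and 2.48, 1.76 and 2.90 in treated libraries. Obese libraries lay above all control and all treated libraries. The log2 fold change with diet was 0.66 (SE 0.20, edgeR adjusted p = 0.0261), lost without control replicate 3 or 4 or obese replicate 2 or 4. Rccd1, on the opposite strand, overlaps Prc1.

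The transcription factors of both waves had higher means in obese hearts without passing the test. E2f1 measured 0.778, 0.502, 0.516 and 0.593 CPM in control, 1.04, 1.52, 0.719 and 1.05 in obese and 0.399, 0.810 and 0.889 in treated libraries, with a log2 fold change of 0.86 with diet (SE 0.31, edgeR adjusted p = 0.0520). Obese replicate 3 alone of its group lay inside the control range, and without it E2f1 was called. Foxm1 measured 1.64, 0.860, 0.852 and 0.702 CPM in control, 1.37, 2.56, 0.926 and 0.772 in obese and 0.990, 0.519 and 0.755 in treated libraries. The Foxm1 groups overlap, with log2 fold changes of 0.47 (SE 0.39, adjusted p = 0.379) with diet and -0.90 (SE 0.43, adjusted p = 0.503) with the cocktail. Ccne2, a cyclin that opens S phase, overlapped in all groups at 3.66, 4.37, 2.85 and 2.48 CPM in control, 3.44, 3.91, 4.78 and 3.22 in obese and 3.30, 2.41 and 3.18 in treated libraries, with a log2 fold change of 0.20 with diet (SE 0.21). Its relative Ccne1 had a log2 fold change with diet of 0.48 (SE 0.24, adjusted p = 0.147) with obese libraries above all control libraries.

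The count of 4 members that rose depended on single libraries. It was 1 without control replicate 3, 2 without control replicate 4, 1 without obese replicate 2 and 7 without obese replicate 3, while the count that fell was 2 without control replicate 2. The members' median was -0.07 without obese replicate 2, 0.12 without control replicate 4 and 0.24 with all libraries. When the model held the intronic share, whose control and obese ranges do not overlap, 0 members were called in either direction, and 121 genes were called in place of 7166. Without the 3 libraries of high atrial signal, 6 members rose and 1 fell.

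Within the control and obese groups, 1 library stood above the rest for most mitotic members. Obese replicate 2 was the highest obese library for 38 of 48 members and for 32 of the 35 mitotic members, and the highest of all 11 libraries for 31 members. The same library was the highest of its group for 24.9% of all genes tested. Control replicate 1 was the highest control library for 33 members, 28 of them mitotic, against 22% of all genes. Taken relative to the control mean, the median log2 CPM of the mitotic members was 0.98 in obese replicate 2 and 0.56 in control replicate 1. In the other obese and control libraries it ran from -0.39 to 0.13. The 3 treated libraries stood at -0.74, -0.76 and -0.60, below all other libraries. Neither obese replicate 2 nor control replicate 1 had a high atrial sum (145 and 44.2 CPM). Other marker sums did set them apart. Obese replicate 2 had the lowest ventricular sum of the 11 libraries (22022 CPM). Its adipocyte (9.33 CPM), endothelial (1026), B and plasma cell (10.5), T and NK cell (3.41) and neutrophil (5.22) sums were the highest of the obese group. Control replicate 1 had the highest erythroid (1539 CPM), T and NK cell (6.89) and smooth muscle and pericyte (1590) sums of its group. Its macrophage (157 CPM, 8 genes), fibroblast (661, 7 genes) and Schwann cell (23.5, 6 genes) sums were also the highest. Its neutrophil (4.41 CPM), adipocyte (0.255) and atrial (44.2) sums were the lowest of its group. The part of these differences in the member levels was not tested.

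**Figure D3:**
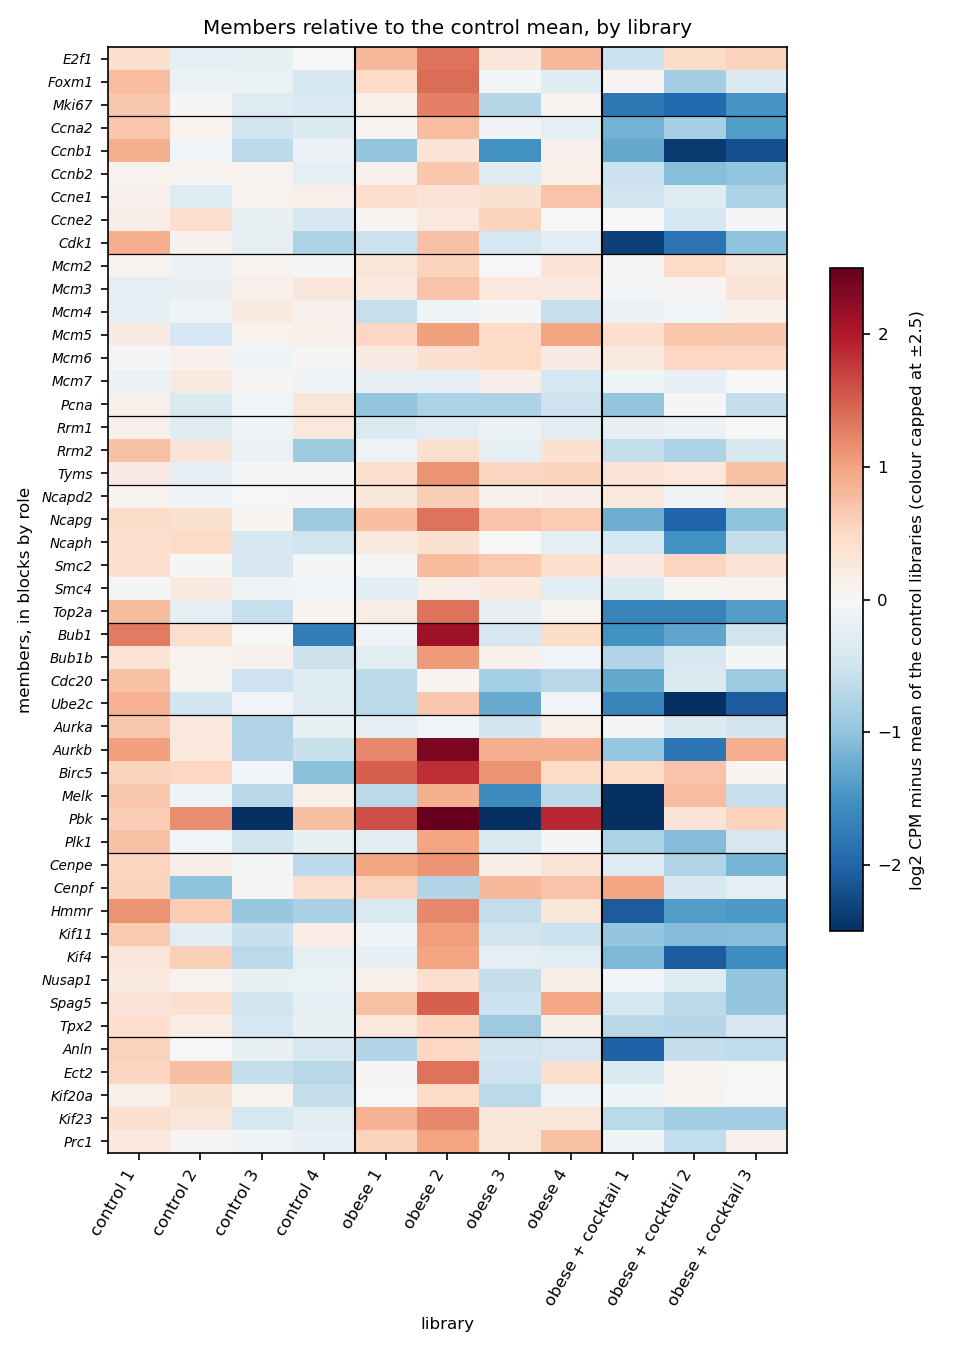
Each row is a member, each column a library, and the colour is log2 CPM minus the mean of the control libraries, with the colour scale capped at 2.5 on either side. The columns of obese replicate 2 and control replicate 1 are mostly red over the mitotic members, and the 3 treated columns are mostly blue there.

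Treated hearts were then compared with obese hearts, which asks how the cocktail is related to these genes under the same diet. At an edgeR adjusted p under 0.05, 0 of 48 members and 0.0% of all genes passed. At an unadjusted p under 0.05, 20 members were lower and 0 higher, against 5.16% of all genes lower and 5.04% higher (2425 genes in both directions). DESeq2 called 124 genes and 8 members, Mki67, Ncapg, Top2a, Kif23, Kif4, Cenpe, Ube2c and Ccna2, all lower, while limma voom called 1 gene and 0 members. In all, 42 of 48 members had a negative log2 fold change (50.8% of all genes), with a median of -0.75 against -0.01 over all genes. Treated libraries lay below all obese libraries for 18 members (5.45% of all genes).

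Negative values were most common among the mitotic members. Of these, 34 of 35 had a negative log2 fold change with a median of -0.95, 19 had an unadjusted p under 0.05 and 16 had groups that did not overlap. Of the replication members, 8 of 13 were negative with a median of -0.17, and 1 (Ccne1) had an unadjusted p under 0.05. The 22 members with a CHR in the promoter window all had negative values, with a median of -1.01. The 17 members with a promoter but no CHR had 13 negative values and a median of -0.48, but they include most replication members. Within the mitotic members, the median was -1.07 for the 21 with a CHR and -0.90 for the 7 without, and all 28 were negative. Over all genes tested, the 2095 with a CHR had a median of 0.00. Only Kif20a of the mitotic members was not negative, at 0.01 (SE 0.28). Values varied among the mitotic members with the most counts. Ncapd2 stood at -0.19 (SE 0.13), Cenpf at -0.20 (SE 0.48), Smc4 at -0.06 (SE 0.16) and Smc2 at -0.12 (SE 0.22). The groups overlapped for each of them. Mki67 stood at -2.09 (SE 0.43) and Prc1 at -0.84 (SE 0.22).

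Mki67 (chr7:135689784-135716361) encodes Ki-67, the coat of mitotic chromosomes that is used to stain dividing cells. It measured 15, 9.55, 7.48 and 7.22 CPM in control, 10.2, 22.6, 5.70 and 9.83 in obese and 2.70, 2.42 and 3.36 in treated libraries. Every treated library lay below every obese and control library, and obese and control libraries overlapped. The treated level was 4.27-fold lower than obese (log2 fold change -2.09, SE 0.43, edgeR adjusted p = 0.341; DESeq2 adjusted p = 6.4e-05). Without obese replicate 2 the value was -1.60, and without obese replicate 3 it passed the edgeR test (adjusted p = 0.0494).

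Top2a (chr11:98992943-99024189), topoisomerase II alpha, untangles sister DNA before division. It measured 3.86, 1.88, 1.5 and 2.31 CPM in control, 2.55, 5.80, 1.93 and 2.39 in obese and 0.695, 0.696 and 0.852 in treated libraries. The treated libraries were the lowest 3 of the 11. Against obese, the log2 fold change was -2.08 (SE 0.41, edgeR adjusted p = 0.263; DESeq2 adjusted p = 0.000393).

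Condensin folds chromosomes for mitosis, and its subunits differed. Ncapg measured 0.693, 0.659, 0.516 and 0.265 CPM in control, 0.856, 1.30, 0.830 and 0.786 in obese and 0.207, 0.114 and 0.244 in treated libraries. All obese libraries lay above control and all treated libraries below it. The log2 fold change was -2.32 against obese (SE 0.40, edgeR adjusted p = 0.184; DESeq2 adjusted p = 0.000207), and 0.82 for obese against control (SE 0.34, adjusted p = 0.0800). Ncaph stood at -0.90 (SE 0.34), Ncapd2 at -0.19 (SE 0.13), Smc2 at -0.12 (SE 0.22) and Smc4 at -0.06 (SE 0.16) against obese. Lcorl, on the opposite strand of Ncapg, limits how far its counts can be assigned.

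Of the cyclins and their kinase, Ccna2, active from S phase into mitosis, measured 2.55, 1.66, 1.13 and 1.23 CPM in control, 1.63, 2.69, 1.47 and 1.33 in obese and 0.680, 0.874 and 0.585 in treated libraries. Cdk1, the kinase that starts mitosis, measured 1.10, 0.631, 0.493 and 0.328 CPM in control, 0.394, 0.974, 0.431 and 0.481 in obese and 0.103, 0.152 and 0.280 in treated libraries. For both genes the treated libraries lay below all others. Its partner Ccnb1 measured 1.23, 0.631, 0.415 and 0.593 CPM in control, 0.325, 0.848, 0.224 and 0.714 in obese and 0.266, 0.114 and 0.134 in treated libraries, where treated replicate 1 lay inside the obese range. Against obese, log2 fold changes were -1.32 (SE 0.34) for Ccna2, -1.65 (SE 0.51) for Cdk1 and -1.63 (SE 0.55) for Ccnb1, with edgeR adjusted p of 0.354, 0.386 and 0.393.

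Ube2c encodes the ubiquitin-conjugating enzyme of the anaphase-promoting complex, which marks cyclin B for destruction. It measured 1.51, 0.588, 0.785 and 0.655 CPM in control, 0.513, 1.32, 0.335 and 0.786 in obese and 0.251, 0.114 and 0.183 in treated libraries. Treated libraries lay below all others, at a log2 fold change of -2.02 against obese (SE 0.52, edgeR adjusted p = 0.354). The checkpoint kinase Bub1 had a value of -2.0 (SE 0.77), its relative Bub1b -0.68 (SE 0.34) and the activator Cdc20 -0.32 (SE 0.37).

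The spindle motors Kif23, Kif4 and Cenpe had their lowest mean in treated libraries. Kif23, needed to split the daughter cells, measured 1.51, 1.39, 0.819 and 0.920 CPM in control, 2.07, 2.59, 1.37 and 1.37 in obese and 0.695, 0.608 and 0.609 in treated libraries. Its treated libraries were the lowest 3, with a log2 fold change of -1.54 against obese (SE 0.31, edgeR adjusted p = 0.263; DESeq2 adjusted p = 0.00296). Kif4, a chromosome-bound kinesin, measured 1.06, 1.29, 0.527 and 0.733 CPM in control, 0.736, 1.71, 0.719 and 0.699 in obese and 0.384, 0.190 and 0.280 in treated libraries. Cenpe, the kinetochore motor, measured 1.26, 0.960, 0.852 and 0.546 CPM in control, 1.73, 1.90, 0.958 and 1.11 in obese and 0.695, 0.506 and 0.378 in treated libraries. The treated libraries of Kif4 lay below all others, and those of Cenpe below obese but not below control. Log2 fold changes against obese were -1.76 (SE 0.44) for Kif4 and -1.44 (SE 0.36) for Cenpe, with an edgeR adjusted p of 0.354 for each.

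Hmmr, a spindle microtubule protein, measured 0.934, 0.659, 0.213 and 0.234 CPM in control, 0.325, 0.990, 0.272 and 0.524 in obese and 0.0887, 0.152 and 0.146 in treated libraries. The treated libraries were again the lowest, with a log2 fold change of -2.01 against obese (SE 0.62, edgeR adjusted p = 0.386). Prc1 was at -0.84 (SE 0.22, adjusted p = 0.356) and Birc5 at -0.89 (SE 0.43, adjusted p = 0.502). Aurora kinases differed from each other, with -1.69 (SE 0.67) for Aurkb and -0.13 (SE 0.34) for Aurka, and Plk1 stood at -0.95 (SE 0.42). Melk and Pbk gave little, since Melk had no count in treated replicate 1 and Pbk none in control replicate 3, obese replicate 3 and treated replicate 1. A count of 0 allows up to 3 counts.

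Mcm5, Mcm6, Tyms, Pcna, Ccne2 and E2f1 had overlapping groups in this comparison. Log2 fold changes against obese were -0.17 (SE 0.22) for Mcm5, 0.10 (SE 0.14) for Mcm6, -0.22 (SE 0.21) for Tyms, 0.27 (SE 0.21) for Pcna, -0.37 (SE 0.22) for Ccne2 and -0.63 (SE 0.34) for E2f1. Ccne1 had treated libraries below all obese ones, at -1.02 (SE 0.27, edgeR adjusted p = 0.356).

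**Figure D4:**
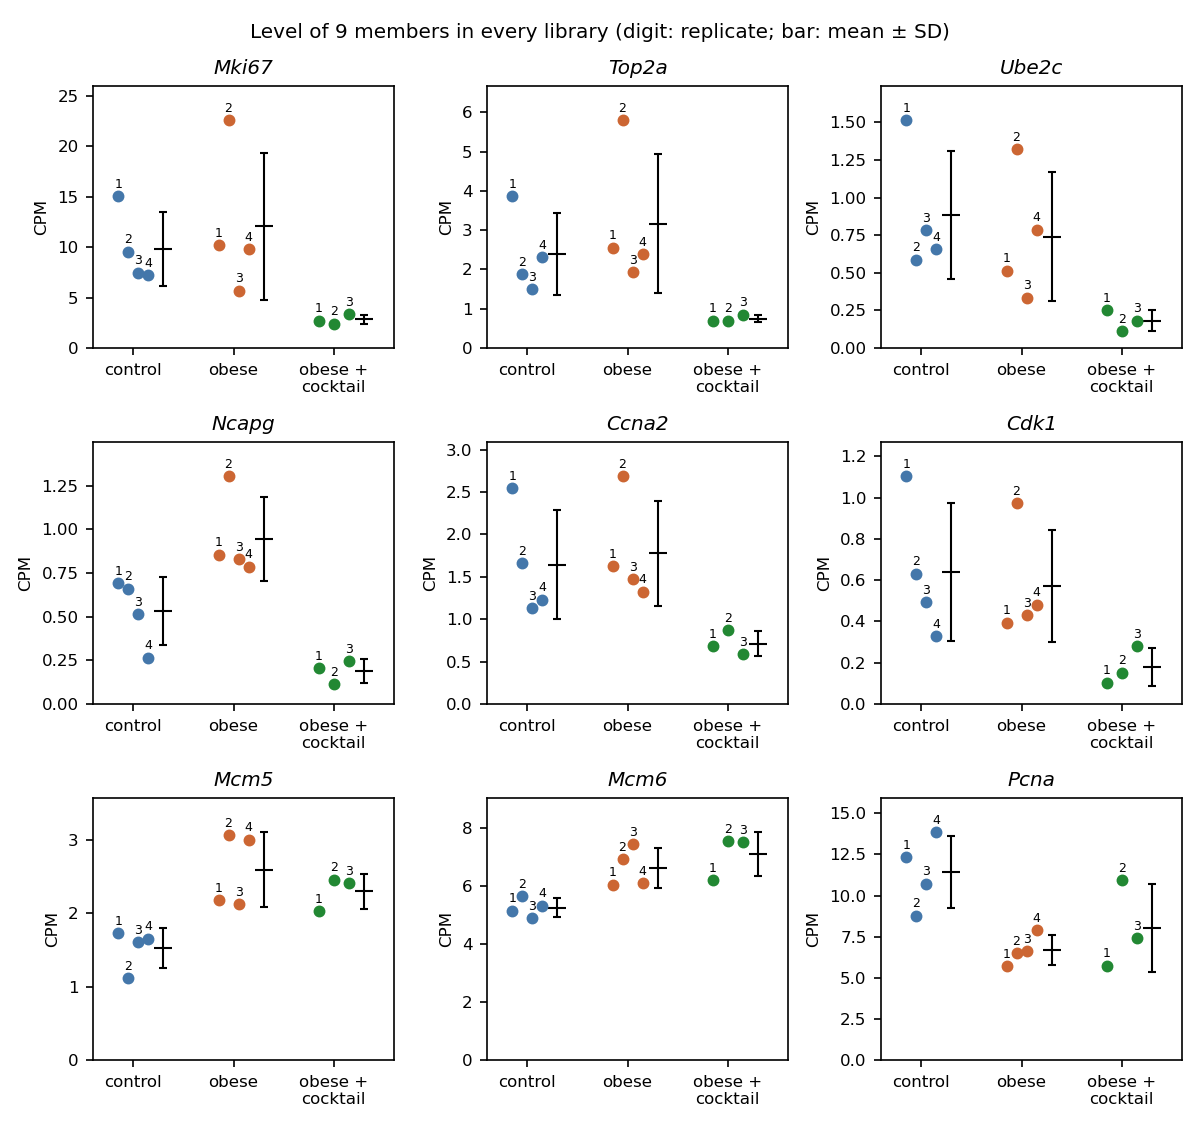
Each point is the CPM of 1 library, the digit its replicate number, and the bar the mean ± SD of the group (control and obese n = 4, treated n = 3), with the y axis from 0 in every panel. The treated libraries are the lowest for Mki67, Top2a, Ube2c, Ncapg, Ccna2 and Cdk1, whereas for Mcm5 and Mcm6 they lie with the obese libraries above control, and for Pcna they spread over both groups.

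One library weighed on the size of this difference. The members' median against obese was -0.49 without obese replicate 2, the library highest in most members, and -0.75 with it. Without obese replicate 3, 1 member (Mki67) and 24 genes passed the edgeR test. Erythroid marker sums were lower in treated libraries too. The 8 of 9 erythroid symbols found, led by globin genes, summed to 1088 to 1539 CPM in control, 886 to 1839 in obese and 721 to 883 in treated libraries, with no marker at 0 in any group. The highest sums were 1839 CPM in obese replicate 4 and 1539 in control replicate 1, and obese replicate 2 stood at 1522. Neutrophil markers (8 genes, 1 of them at 0 in obese and 1 in treated) summed to 4.12 to 5.22 CPM in obese and 2.67 to 3.68 in treated libraries. The single markers mostly did not follow this sum. Of the 5 tested against obese, 4 had a positive log2 fold change and 1 a negative one, with a median of 0.20. The part of erythroid and neutrophil markers in the result was not tested. Without the 3 libraries of high atrial signal the median was -0.96, with 1 treated library left that is assumed to vary like the other groups.

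**Figure D5:**
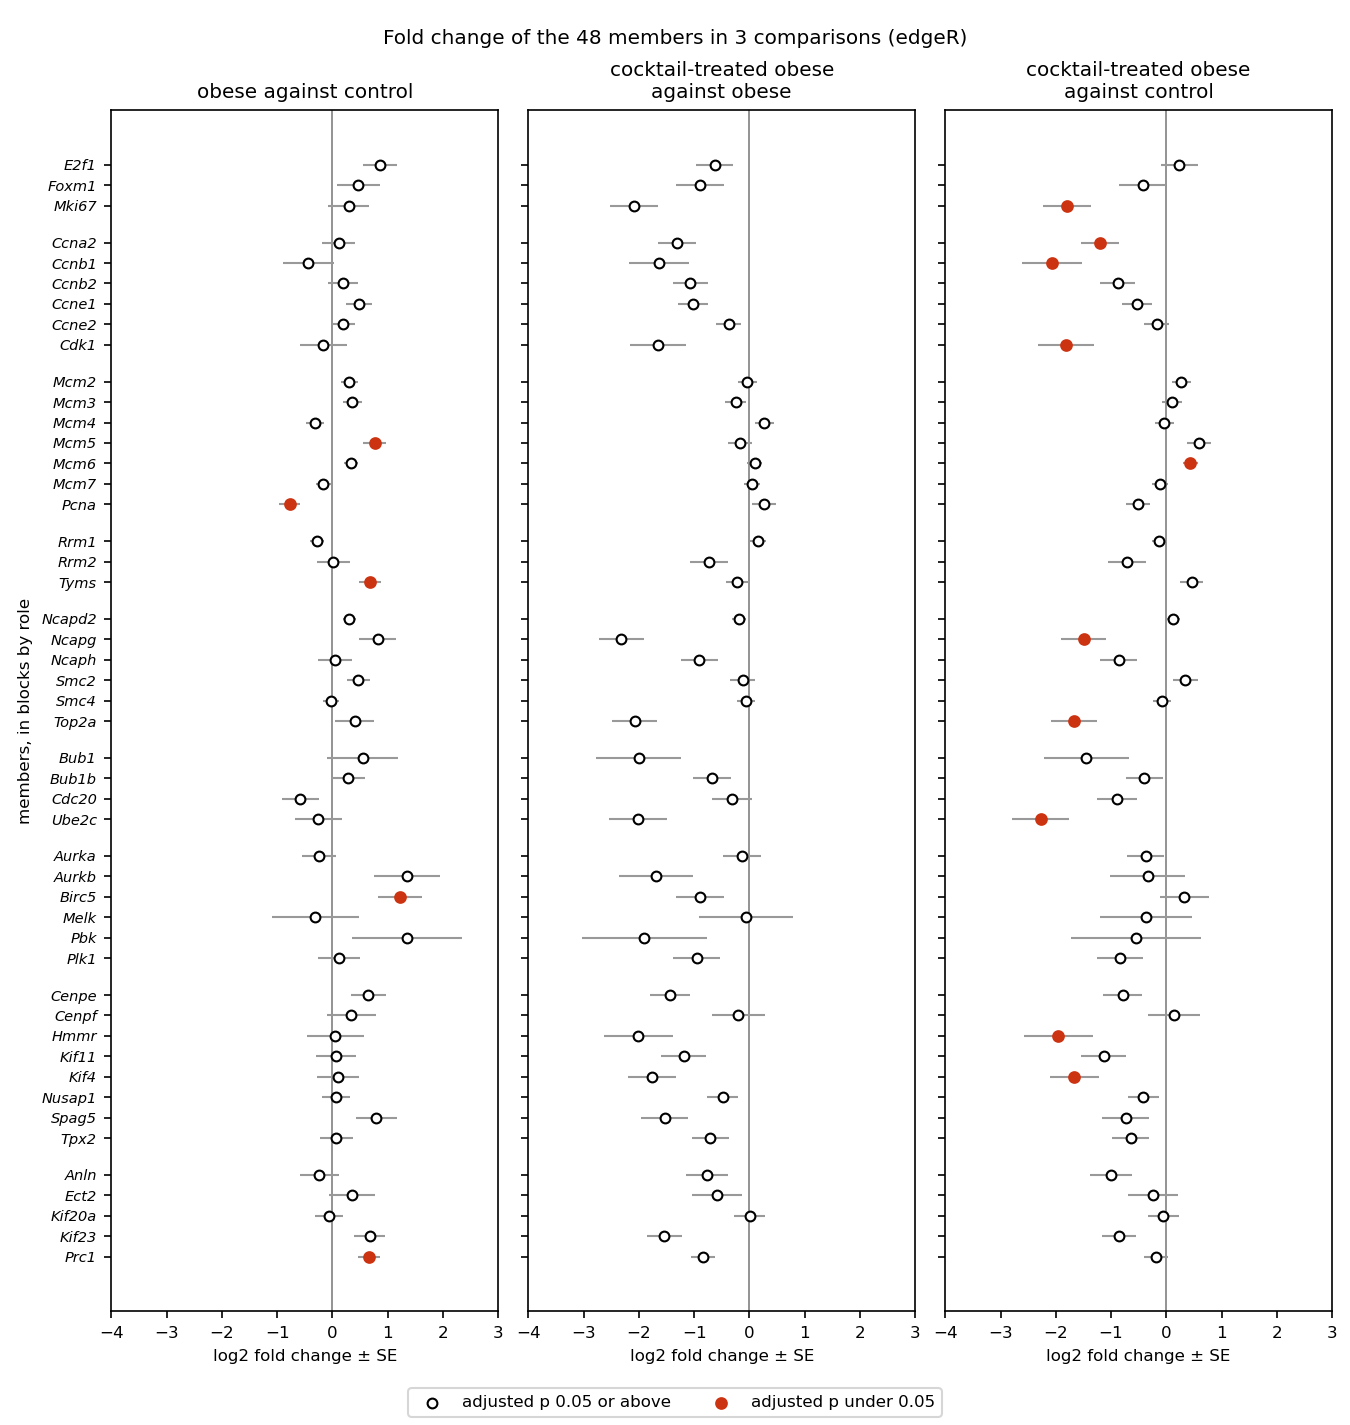
Points are log2 fold changes of the 48 members from the edgeR fit with bars of 1 SE, in panels by comparison, and filled points have an adjusted p under 0.05. In the panel of treated against obese hearts 42 of 48 points lie left of 0 and none is filled. In that of treated against control hearts 9 filled points lie left and 1 right.

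Treated hearts were last compared with control hearts, so that diet and cocktail differ together. This comparison shares the treated libraries with the one against obese hearts and the control libraries with the one of diet, and is not independent of either. At an edgeR adjusted p under 0.05, 9 members fell (Mki67, Top2a, Ube2c, Ncapg, Ccna2, Ccnb1, Cdk1, Kif4 and Hmmr) and 1 rose (Mcm6), against 8.39% and 7.43% of all genes (15.8% in all). All 9 that fell are mitotic members. Treated libraries lay below all control libraries for 13 members (14.1% of all genes) and above for Mcm5, Mcm6 and Tyms (13.7%). The median log2 fold change was -0.47 over the members, -0.79 over mitotic and -0.04 over replication members, and 0.05 over all genes.

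Ube2c had the smallest adjusted p of the members and was 4.84-fold lower than control (log2 fold change -2.28, SE 0.52, edgeR adjusted p = 0.0136). Ccnb1 was 4.19-fold lower (adjusted p = 0.0250), Hmmr 3.88-fold (0.0489), Cdk1 3.52-fold (0.0308) and Mki67 3.47-fold lower (0.0199). For Top2a, Kif4, Ncapg and Ccna2 the folds were 3.18 (adjusted p = 0.0186), 3.17 (0.0247), 2.82 (0.0259) and 2.30 (0.0326). The Hmmr call was the least stable of these. It was lost in most alternatives, among them upper-quartile scaling, no low-count filter, protein-coding genes only, the replicate block and limma voom. Kif23, which DESeq2 called, stood at -0.86 (SE 0.31, edgeR adjusted p = 0.0722).

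These 9 calls depended on the libraries kept. Without treated replicate 3, 0 members and 1011 genes were called in place of 3760 genes. The count of members that fell was 3 without treated replicate 1, 3 without treated replicate 2 and 2 without control replicate 1. It was 0 with the intronic share in the model, where Mki67 stood at -1.57 on the log2 scale (SE 0.59, edgeR adjusted p = 0.211) and Ube2c at -1.61 (SE 0.67, adjusted p = 0.238). The fit without the 3 libraries of high atrial signal keeps 1 treated library, so its calls are not counted. Mki67 stood there at -1.85 against -1.79 with all libraries. Over 22 alternatives the Mki67 value ran from -1.94 to -1.52. Endothelial, smooth muscle, B-cell and erythroid marker sums and the mitochondrial share, given above, were lower in treated than in control libraries with no overlap. Adipocyte and mesothelial sums were higher. Of the 7 smooth muscle and pericyte markers, 4 had a negative log2 fold change here and 3 a positive one. T and NK cell markers (8 genes) summed to 3.30 to 6.89 CPM in control and 2.34 to 2.56 in treated libraries, and neutrophil markers to 4.41 to 8.03 and 2.67 to 3.68 CPM, again with no overlap. Their part in the result was not tested.

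Other genes of the cell cycle were read from fixed pathway lists, of which 112 genes were tested. Their counts with diet are to be read against 14.4% of all genes higher and 15.7% lower, and against the fall from 7166 to 121 called genes with the intronic share in the model. In the list of other mitotic genes (46 tested), 43 had a negative log2 fold change for treated against obese hearts (50.8% of all genes). Their list median was -0.89. At an unadjusted edgeR p under 0.05, 20 were lower (5.16% of all genes), and 0 passed the adjusted test. Those with the smallest p were the kinetochore scaffold Knl1 (-1.84, SE 0.39), the checkpoint kinase Ttk (-1.92, SE 0.44) and the spindle protein Ckap2l (-2.04, SE 0.49), with edgeR adjusted p of 0.325, 0.354 and 0.354. With diet, 4 of the 46 rose and 3 fell, smaller shares than over all genes. The chromosome-bound kinesin Kif22 rose from 0.698 ± 0.125 to 1.62 ± 0.524 CPM (SD, n = 4 each, edgeR adjusted p = 0.00453). The separase inhibitor Pttg1 fell from 47.4 ± 7.92 to 26.4 ± 3.10 CPM (edgeR adjusted p = 0.000717) and the microtubule destabiliser Stmn1 from 7.80 ± 1.79 to 4.03 ± 1.19 CPM (edgeR adjusted p = 0.00785). Treated against control, 1 rose (7.43% of all genes) and 5 fell (8.39% of all genes). Among those that fell were the centromere histone Cenpa (-0.80, SE 0.14, edgeR adjusted p = 0.00377), Stmn1 (-1.22, SE 0.25) and Pttg1 (-0.62, SE 0.14).

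Of 32 other replication genes, 6 rose and 4 fell with diet, near the shares over all genes. Uhrf1, which carries DNA methylation through replication, rose from 0.734 ± 0.162 to 2.24 ± 0.884 CPM (edgeR adjusted p = 0.00126), and the fork protection gene Timeless from 4.21 ± 0.765 to 7.89 ± 2.53 CPM (adjusted p = 0.00861). Rpa2, of the complex that coats single-stranded DNA, fell from 8.5 ± 0.734 to 4.44 ± 0.855 CPM (adjusted p = 0.00128), as Pcna did. Treated hearts held Uhrf1 at 1.64 ± 0.0947 and Rpa2 at 4.55 ± 0.695 CPM (n = 3). Both were called against control in the same directions (edgeR adjusted p = 0.0188 and 0.00609), and Tipin, partner of Timeless, fell (-0.75, SE 0.21, adjusted p = 0.0307). Against obese, 0 of the 32 passed the edgeR test. The smallest p belonged to Clspn, a checkpoint adaptor (-1.57, SE 0.46), Gins2, of the helicase complex (2.40, SE 0.72), and Pola1, of the priming polymerase (-0.34, SE 0.15), with edgeR adjusted p of 0.386, 0.386 and 0.481.

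Of 14 homologous recombination and replication stress genes, 5 were called as higher with diet, and all 14 were positive with a median log2 fold change of 0.57. Over all genes tested, 14.4% were called as higher, 13506 of 23779 were positive and the median was 0.11. Brca2 rose from 5.36 ± 0.981 to 8.24 ± 1.04 CPM (edgeR adjusted p = 0.0107) and Brca1 from 0.387 ± 0.145 to 0.995 ± 0.433 CPM (adjusted p = 0.0170). The treated level of Brca2 was 5.85 ± 0.747 CPM (n = 3). Against obese, 13 of 14 were negative (50.8% of all genes) with a median of -0.51. The edgeR test passed 0 of them, with Rad54l at -0.59 (SE 0.19, adjusted p = 0.387) and Brca2 at -0.49 (SE 0.17, adjusted p = 0.402). Against control 0 of 14 passed, with Bard1, partner of BRCA1, at 0.87 (SE 0.29, edgeR adjusted p = 0.0601), Chek2 at -0.47 (SE 0.28) and Brca1 at 0.58 (SE 0.41).

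Of 20 upstream regulators in G1, 3 rose and 3 fell with diet, about the shares over all genes (14.4% and 15.7%). Rbl2, the pocket protein p130 of the DREAM complex, fell from 79.0 ± 4.18 to 44.4 ± 6.80 CPM (edgeR adjusted p = 0.000404) and Myc from 8.38 ± 2.38 to 3.41 ± 1.38 CPM (adjusted p = 0.00524). Mybl2, which encodes B-MYB, rose from 0.138 ± 0.0655 to 0.395 ± 0.0934 CPM (adjusted p = 0.00988). Rbl2 and Mybl2 were called in the same directions in treated hearts against control, at 52.3 ± 3.64 and 0.411 ± 0.0894 CPM (edgeR adjusted p = 0.00841 and 0.0204), and E2f3 fell (-0.66, SE 0.17, adjusted p = 0.0242). Against obese, 0 of 20 passed the edgeR test, with E2f7, an atypical E2F that represses E2F targets, at -1.08 (SE 0.26, adjusted p = 0.354), E2f2 at -1.52 (SE 0.39, adjusted p = 0.354) and Cdk2 at -0.32 (SE 0.13, adjusted p = 0.440).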

How the data were processed

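Gene counts for 11 mouse heart libraries were deposited by the authors as a table of whole numbers per Ensembl gene, analysed here as read counts. The submitters' processing notes name cutadapt, HISAT2, StringTie and the build GRCm38, without versions or settings. Not given in the sources used here are the annotation, the strand setting, and whether the values are counted reads or estimates from coverage. Symbols, positions and exon lengths came from a GENCODE annotation of GRCm38, and promoters from RefSeq on GRCm38.p6.

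Genes were filtered with edgeR 4.0.16 (R 4.3.3, filterByExpr, minimum count 10, minimum total 15), which kept 23779 genes, and scaled by TMM. All 11 libraries were fitted in 1 quasi-likelihood model of 3 groups (glmQLFit, robust, glmQLFTest), and p-values were adjusted by Benjamini-Hochberg over all genes tested in each comparison, with a threshold of 0.05. The standard error is the size of the log2 fold change over the square root of F. CPM use TMM-scaled library sizes, and log2 CPM a prior count of 1. The fit was tested on simulated data. The 48 members and all lists were chosen with earlier results of these data known, so lists are described by counts and medians with no test. Named in full were Mki67, Top2a, Pcna, Ccne2, E2f1, Foxm1, each member called in any comparison and the 8 members with the smallest p against obese, and from each pathway list the 3 genes with the smallest p in each comparison. 1 pathway gene that this rule names is not reported here. Others were named from their values. Replicate numbers, which the labels do not say mark animals or batches, were not used as pairs in the main fit. Deviations from group means were correlated above 0.1 in 3 of 10 same-numbered pairs and in 5 of 30 other pairs. The highest correlations were 0.40 and 0.19. The 0.40 was between obese and treated replicates 1. Obese and treated replicates 3 gave 0.34 and replicates 2 gave 0.07, so pairing of these groups is not excluded. Obese replicate 3 with treated replicate 1 gave -0.41. Replicates 3 of both groups had a high atrial signal and replicates 1 did not, and its part in these values was not tested. Libraries of 1 group differed by more than sampling noise. Alternatives were other scalings, filters, gene sets, a replicate block, an intronic-share covariate, DESeq2 1.42.0, limma voom (limma 3.58.1) and leaving out libraries. Leaving out the 3 libraries of high atrial signal was chosen after seeing the data.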

Additional observations from a re-analysis of the deposited data

Results flagged for a closer look

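In groups of 4 libraries, 40 groups of the members given in full were searched for a library whose gap to the nearest other was a larger part of the group's range than Dixon's 95% critical value. Chance would flag about 1 in 20 groups if values were normally distributed and groups independent. These groups are members read in the same libraries, so the 5 found cannot be set against that rate. In obese replicate 2, Top2a measured 5.80 CPM against 1.93 to 2.55 in the other obese libraries. Kif4 stood there at 1.71 CPM against 0.699 to 0.736, Ncapg at 1.30 against 0.786 to 0.856, and Cdk1 at 0.974 against 0.394 to 0.481. In control replicate 1, Foxm1 measured 1.64 CPM against 0.702 to 0.860 in the other control libraries.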

How the results depend on the processing

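Obese against control: 7166 genes were called (121 with the intronic share as covariate, 4917 to 8153 leaving out 1 library). Members that rose numbered 4 (8 with upper-quartile scaling, 10 with protein-coding genes only, 0 with the intronic share, 1 to 7 leaving out 1 library), members that fell 1 (0 with the intronic share, 1 to 2), and the median was 0.24 (-0.07 to 0.33). Of 23779 genes tested, upper-quartile scaling turned 3429 higher and 3737 lower into 4378 and 2926. It moved the median of all genes from 0.11 to 0.21. With protein-coding genes only, 2714 of 15660 genes were called as higher and 2878 as lower.

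Treated against obese: 0 genes were called, 2 with upper-quartile scaling, no filter or protein-coding genes only, 124 with DESeq2 and 1 with limma voom. Leaving out 1 library gave 0 to 24 genes. Without the 3 libraries of high atrial signal 1 treated library is left, so calls of that fit are not counted for treated hearts. Members that fell numbered 8 with DESeq2 and 0 to 1 leaving out 1 library, 0 rose, and the median ran from -0.89 to -0.49.

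Treated against control: 3760 genes were called (510 with the intronic share, 378 without the 3 libraries, 1011 to 4652 leaving out 1 library). Members that fell numbered 9 (13 with DESeq2, 3 when 1 CPM in 3 libraries was required, which tested 33 members, 0 with the intronic share or without the 3 libraries, 0 to 10 leaving out 1 library). The 1 that rose became 2 with protein-coding genes only and 0 with RLE factors, no filter, only the 2 groups, the replicate block, the intronic share or without the 3 libraries (0 to 1 leaving out 1 library). The median ran from -0.59 to -0.39.

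With a replicate block the calls were 7112, 0 and 2690 genes and 5 members rose with diet (Kif23 added). Against control 9 members still fell, but with Kif23 in place of Hmmr.

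Signs changed, in no case with a call after the change. Pcna with diet, called at -0.78, was 0.026 with the intronic share (edgeR adjusted p = 0.981). Leaving out 1 library with diet, Ccna2 ran from -0.15 to 0.40 (-0.043 and -0.012 without control replicates 3 and 4), Hmmr from -0.44 to 0.52 (-0.22 and -0.19 without the same), Kif4 from -0.33 to 0.30 (-0.10 without control replicate 3), Mki67 from -0.19 to 0.57, Top2a from -0.057 to 0.73, Cdk1 from -0.55 to 0.22 and Ube2c from -0.69 to 0.12. The low ends came without obese replicate 2, and the high ends of Cdk1 and Ube2c without control replicate 1. With diet and the intronic share, Ccnb1 was 0.39, Ccne2 -0.52, Kif4 -0.37 and Ube2c 0.71, and with DESeq2 Hmmr was -0.0031. Against obese, Pcna was -0.058 with the intronic share, -0.018 to 0.46 leaving out 1 library (lowest without treated replicate 2) and -0.21 without the 3 libraries, where Mcm6 was -0.023. E2f1 against control was -0.57 without the 3 libraries. The cause of these changes was not tested.

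At 58.4 to 89.2 counts per CPM, 20 members had under 1 CPM, and counting error limits them most.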
